A study of Cercocebus atys with 16 samples.

Results

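CXCL9, CXCL10, CXCL11, GBP1 and GBP2 are genes that cells switch on in response to interferon-gamma. They were taken as every array probe whose gene name in the files is one of these 5 symbols, which gave 10 probes among 43603 distinct non-control probes, for 5 of the 12388 gene symbols named on the array. There was 1 probe for CXCL9, 2 each for CXCL10, CXCL11 and GBP1, and 3 for GBP2. The RNA came from double-negative T cells (CD3+CD4-CD8-), taken from blood by magnetic beads in a CD4+, CD8+ and CD16+ cell depletion followed by selection for CD3, at a stated purity above 98%. The cells of each of 4 sooty mangabeys (Cercocebus atys) rested overnight and were then either given anti-CD3 and anti-CD28 antibodies (written in the labels as 3 mg/ml and 1 mg/ml) over 4 hours or left unstimulated. FBR and FTV had a CD4 status labelled low and FNV and FKN one labelled normal. All 4 were infected with SIV, the simian relative of HIV, so no uninfected animal entered any comparison, and each stimulated sample and its unstimulated control came from the same animal. Age and sex were not given in the sources used here.

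Each animal had 4 arrays with 2 colours. On 2 of them stimulated and unstimulated RNA shared the array, once in each dye, and the other 2 were self-self arrays, with one RNA in both channels. Every condition of an animal was therefore read in 4 channels, or 16 channels over the animals. Levels below are log2 normalised intensities averaged over the 4 channels, and a response is the log2 ratio of stimulated over unstimulated on the ratio arrays, averaged over both dye orientations, so that n = 4 animals. The share of spots well above background ranged from 57.0% to 65.0% in the channels of FBR, FTV and FKN and from 33.3% to 64.8% in those of FNV, whose arrays carry an earlier scan date. The low end came from the stimulated self-self array of FNV (33.3% in Cy3 and 37.6% in Cy5), and its other channels had 52.0% or more. Both channels of that dim array enter the stimulated levels of FNV, and it is the stimulated side of the self-self differences of FNV. Each animal had a slide of its own, so slide and animal cannot be told apart. The array was designed on the rhesus macaque, and how well each probe binds mangabey RNA was not tested.

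Interferon-gamma, the product of IFNG, is secreted by activated T and NK cells and binds a receptor built from IFNGR1 and IFNGR2. The receptor signals through the kinases JAK1 and JAK2 and turns on IRF1 and a broad set of target genes, and SOCS1 restrains the same receptor. CXCL9, CXCL10 and CXCL11 are secreted chemokines that share one receptor, CXCR3, and draw activated T cells into inflamed tissue. GBP1 and GBP2 are guanylate-binding proteins, large GTPases that attack intracellular pathogens and the compartments they live in. CXCL10, CXCL11 and the GBP genes also respond to type I interferon, whereas CXCL9 is known as the ligand most tied to interferon-gamma.

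The files place the chemokine probes next to each other on chromosome 5 of the rheMac2 build and the GBP probes together on chromosome 1. Of the 2 CXCL10 probes, A_01_P016296 lay at chr5:53565764-53565823 and A_01_P1672136 at chr5:53564818-53565314, a span of 497 bases for a probe of 60. The CXCL11 probes were A_01_P005324 at chr5:53551568-53551627 and A_01_P1670271 at chr5:53551004-53551293, and the CXCL9 probe A_01_P1670306 lay at chr5:53582597-53582656, all on the plus strand. On the minus strand of chromosome 1, the GBP1 probes were A_01_P009151 at chr1:91802244-91802303 and A_01_P1766736 at chr1:91805953-91806012. The GBP2 probes were A_01_P1766741 at chr1:91862354-91862413, A_01_P012911 at chr1:91864030-91864089 and A_01_P1766746 at chr1:91981249-91981308. The last of these carries the name GBP2 while its description calls it a guanylate-binding protein 6-like transcript, and it is called the GBP6-like probe below. Exons and untranslated regions of the mangabey genes were not analysed here.

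Probe sequences are given as the array files hold them, 5′ to 3′. They were compared with each other and not aligned to transcripts, so which transcript each probe reads was not tested. The first 3 stand for the chemokines, and in each of them 1 of 3 reading frames has no stop codon. In the last 2, capitals mark the 26 bases that the GBP6-like probe shares with the probe of GBP6, at chr1:92097324-92097383 on the plus strand.
CXCL9 A_01_P1670306: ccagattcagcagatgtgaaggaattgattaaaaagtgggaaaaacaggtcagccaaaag
CXCL10 A_01_P1672136: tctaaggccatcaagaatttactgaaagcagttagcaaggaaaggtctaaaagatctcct
CXCL11 A_01_P1670271: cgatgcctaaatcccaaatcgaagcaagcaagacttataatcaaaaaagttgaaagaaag
GBP2 A_01_P1766746: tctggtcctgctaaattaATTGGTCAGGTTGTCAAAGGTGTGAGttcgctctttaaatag
GBP6 A_01_P1766761: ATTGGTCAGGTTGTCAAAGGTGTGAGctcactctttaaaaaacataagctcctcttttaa
Between chemokine probes of different genes the longest shared run was 7 bases, and between GBP1 and GBP2 probes it was also 7. At the best ungapped alignment the GBP6-like and GBP6 probes matched at 38 of 42 overlapping bases, and whether they bind each other's transcripts was not tested. The GBP6-like probe is therefore kept apart from the other GBP2 probes in what follows.

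All 10 probes rose after stimulation (limma, Benjamini-Hochberg adjusted p under 0.05 over 27495 tested probes), against a background of 19.9% of all tested probes called higher and 20.4% called lower. The 5 chemokine probes rose most, by a mean of 2.95 to 3.79 on the log2 scale, the 2 GBP1 probes by 1.97 and 2.62, and the 3 probes named GBP2 by 0.79 to 1.02. The stimulated levels of every animal lay above the unstimulated levels of every animal for 7 of the 10 probes, as they did for 7.69% of all tested probes. The exceptions were the second GBP1 probe, the brightest GBP2 probe and the GBP6-like probe. The median response over all tested probes was -0.01.

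CXCL11 had the largest rise of the set. With A_01_P005324, the brighter probe, its level was 12.71 in FBR, 13.16 in FTV, 13.99 in FNV and 11.95 in FKN after stimulation, against 8.78 in FBR, 10.74 in FTV, 9.32 in FNV and 8.34 in FKN without it. The lowest stimulated level was 1.20 above the highest unstimulated one. The response was 4.11 in FBR, 2.47 in FTV, 4.80 in FNV and 3.78 in FKN, with a mean of 3.79 ± 0.98 (SD, n = 4; 13.8-fold; limma adjusted p = 0.00159). It was thus largest in FNV and smallest in FTV, where the unstimulated level was the highest. A_01_P1670271 gave 3.59 ± 0.97 (SD, n = 4; adjusted p = 0.00182) with the animals in the same order. These were ranks 16 and 18 among the rises of the 27495 tested probes.

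CXCL10 was the chemokine in which FTV stood furthest apart. Its stimulated level with A_01_P016296 was 13.79 in FBR, 14.84 in FTV, 13.51 in FNV and 13.41 in FKN, against unstimulated levels of 10.11 in FBR, 13.17 in FTV, 9.77 in FNV and 10.14 in FKN. FTV was the highest animal in both conditions, and its unstimulated level came within 0.24 of the lowest stimulated level. The response was 3.73 in FBR, 1.77 in FTV, 3.80 in FNV and 3.23 in FKN, with a mean of 3.13 ± 0.94 (SD, n = 4; 8.76-fold; limma adjusted p = 0.00246). In 3 animals the rise thus exceeded 3 on the log2 scale and in FTV it was 1.77. A_01_P1672136, at another position, had the same pattern, with 3.74 in FBR, 1.73 in FTV, 3.45 in FNV and 3.27 in FKN (mean 3.05 ± 0.90; adjusted p = 0.00229).

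CXCL9 had another order of animals. Its level was 9.04 in FBR, 10.53 in FTV, 9.47 in FNV and 10.47 in FKN after stimulation, against 7.23 in FBR, 7.80 in FTV, 6.66 in FNV and 6.62 in FKN without it. Its response was 2.00 in FBR, 2.90 in FTV, 2.64 in FNV and 4.27 in FKN, with a mean of 2.95 ± 0.96 (SD, n = 4; 7.74-fold; limma adjusted p = 0.00308). FKN had the largest rise, and FTV, lowest of the 4 for CXCL10 and CXCL11, was second. The unstimulated CXCL9 signal was well above background in 12 of 16 channels and in 0 of the 4 channels of FNV, so the size of its rise in that animal depends on how background was handled. With a smaller offset of 16 the responses were 2.31 in FBR, 3.11 in FTV, 3.67 in FNV and 4.90 in FKN, and the scanner software's own ratios were 2.70 in FBR, 3.29 in FTV, 6.60 in FNV and 5.82 in FKN. FBR stayed the lowest animal in each of these, while FNV lay below FTV with the offset of 50, between FKN and FTV with 16, and above all others in the scanner ratios.

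**Figure D1:**
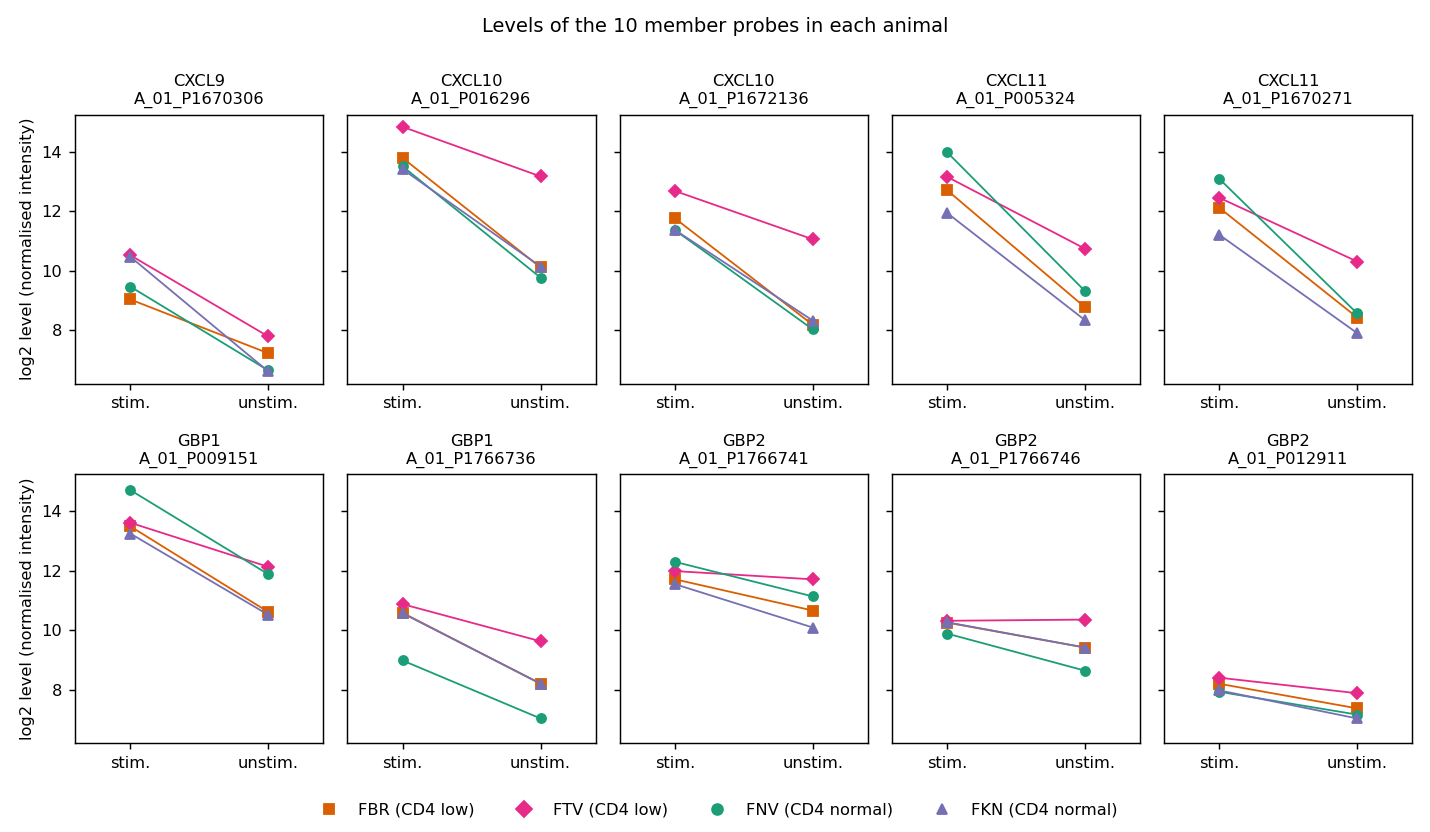
Log2 normalised level (y axis) of each member probe after stimulation (left) and without it (right), with 1 line per animal and no error bars. FTV has the highest unstimulated level of the 4 animals for all 10 probes.

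GBP1 was higher after stimulation in 4 of 4 animals. With A_01_P009151 its level was 13.50 in FBR, 13.62 in FTV, 14.71 in FNV and 13.25 in FKN after stimulation, against 10.62 in FBR, 12.14 in FTV, 11.89 in FNV and 10.52 in FKN without it. The response was 3.05 in FBR, 1.52 in FTV, 2.93 in FNV and 2.97 in FKN, a mean of 2.62 ± 0.73 (SD, n = 4; 6.14-fold; limma adjusted p = 0.00203). FBR, FNV and FKN were thus close together and FTV stood below them. The second GBP1 probe, A_01_P1766736, rose by 1.97 ± 0.64 (SD, n = 4; adjusted p = 0.00317). The 2 GBP1 probes placed FNV differently: it had the highest stimulated level with A_01_P009151, and with A_01_P1766736 the lowest, at 8.99 against 10.59 in FBR, 10.88 in FTV and 10.58 in FKN.

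GBP2 changed least. Its brightest probe, A_01_P1766741, had levels of 11.72 in FBR, 11.99 in FTV, 12.30 in FNV and 11.55 in FKN after stimulation, against 10.67 in FBR, 11.72 in FTV, 11.14 in FNV and 10.10 in FKN without it. These ranges overlapped, because the unstimulated level of FTV lay above the stimulated level of FKN. Its response was 1.10 in FBR, 0.28 in FTV, 1.25 in FNV and 1.43 in FKN, a mean of 1.02 ± 0.51 (SD, n = 4; 2.02-fold; limma adjusted p = 0.0133), higher in 4 of 4 animals. The call did not hold without FKN (0.88, adjusted p = 0.0576) or without FBR (0.99, adjusted p = 0.0634). The dimmest probe, A_01_P012911, rose by 0.79 ± 0.24 (SD, n = 4; adjusted p = 0.00355) and kept its call when any 1 animal was left out.

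The GBP6-like probe rose by 0.80 ± 0.57 (SD, n = 4; limma adjusted p = 0.0370), with 0.91 in FBR, 0.01 in FTV, 1.36 in FNV and 0.91 in FKN. Its call was lost without FBR, without FNV and without FKN, and FTV had 0.01 here, -0.09 on the self-self arrays and -0.03 by the scanner ratios. The probe of GBP6 itself, which shares the 26 bases printed above, rose by 0.59 ± 0.35 (adjusted p = 0.0234), with 0.79 in FBR, 0.10 in FTV, 0.61 in FNV and 0.88 in FKN. Leaving out the GBP6-like probe, GBP2 rests on 2 probes, both of which rose.

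The self-self arrays, which the ratios did not use, gave a second reading of the same RNA. For FNV this reading rests on the dim stimulated array described above. On them 9 of the 10 probes rose (limma, paired by animal), against 13.9% of tested probes called higher. The mean difference was 3.52 for CXCL11, 3.05 for CXCL10, 2.65 for CXCL9, 2.34 for GBP1 and 0.96 for GBP2 with the brightest probes, and the GBP6-like probe did not pass (0.65, adjusted p = 0.0627). Within an animal the 2 dye orientations differed by a median of 0.13 over the 40 pairs of probe and animal and by at most 0.65. On self-self arrays the true ratio is 0, and the largest measured red-over-green ratio among 80 readings was 0.58 in size, for CXCL10 in stimulated FTV, with the next at 0.25. The mean responses of all 10 probes over the animals were larger in size than that single reading. In FTV alone the 3 probes named GBP2 were below it, at 0.28, 0.01 and 0.56.

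**Figure D2:**
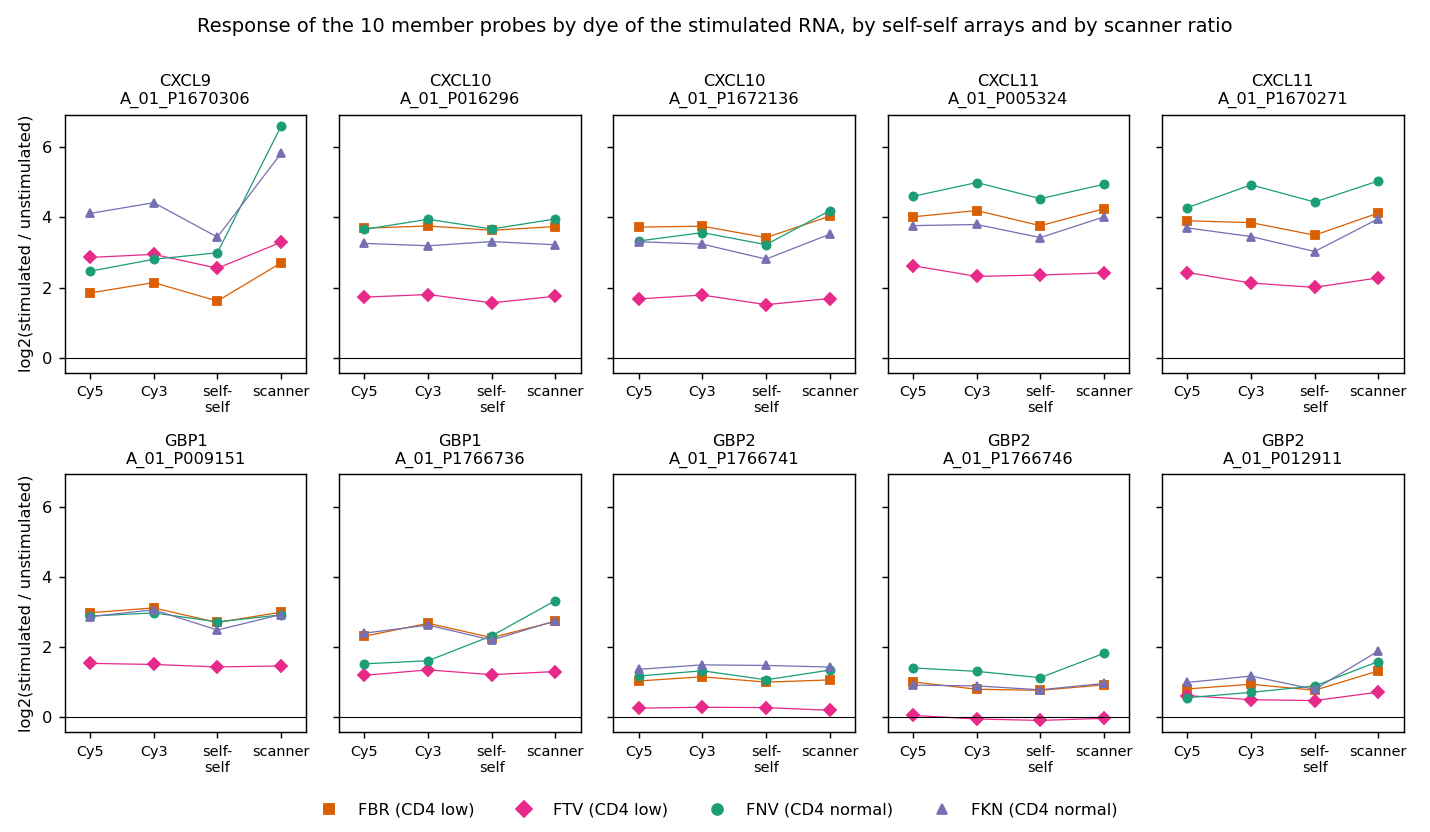
Response (y axis, log2 of stimulated over unstimulated) of each member probe per animal, from the arrays with stimulated RNA in Cy5, those with it in Cy3, the self-self arrays, and the scanner software's ratios averaged over both dyes. The scanner ratios exceed the others most for CXCL9 in FNV (6.60 against 2.64 from the ratio arrays) and for the second GBP1 probe in FNV (3.33 against 1.57).

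In the authors' deposited table CXCL11 had log2 ratios of 4.20 in FBR, 2.45 in FTV, 5.03 in FNV and 4.01 in FKN with A_01_P005324. For CXCL10 with A_01_P016296 the authors' deposited table gave 3.72 in FBR, 1.73 in FTV, 3.96 in FNV and 3.23 in FKN. CXCL9 in the authors' deposited table had 2.67 in FBR, 3.19 in FTV, 4.71 in FNV and 5.96 in FKN, a mean of 4.13 and so larger than the 2.95 computed here. For GBP1 with A_01_P009151 the authors' deposited table had a mean of 2.62 against 2.62 computed here, and for GBP2 with A_01_P1766741 one of 1.03, against 1.02. The dimmer probes differed more: the authors' deposited table had means of 2.41 for GBP1 with A_01_P1766736, against 1.97 computed here, and of 1.27 for GBP2 with A_01_P012911, against 0.79.

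FTV was examined after these values had been seen. Its response was the lowest of the 4 animals for 9 of the 10 probes, all but CXCL9, against 21.9% of all tested probes and 8.76% of those called higher. Its unstimulated level was the highest for 10 of 10 probes, against 21.7% of tested probes and 12.1% of those called higher. Its stimulated level was the lowest for 0 of the 10, against 27.1% of tested probes, and the highest for 6, against 21.2%. The 10 probes come from 5 neighbouring or related genes and are not independent of each other, and with 1 animal the difference was not tested.

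IFNG itself had its lowest response in FKN and not in FTV. It rose by 5.51 ± 0.70 (SD, n = 4; limma adjusted p = 0.000527), with 6.11 in FBR, 5.26 in FTV, 6.04 in FNV and 4.62 in FKN. Its stimulated level was 13.77 in FBR, 14.81 in FTV, 13.85 in FNV and 13.42 in FKN, against 7.94 in FBR, 9.62 in FTV, 8.11 in FNV and 8.91 in FKN without stimulation. FTV thus had the highest IFNG level in both conditions, and FKN the smallest IFNG response together with the largest CXCL9 response. By the scanner software's ratios, though, the CXCL9 response was largest in FNV, at 6.60 against 5.82 in FKN.

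Type I interferon-stimulated genes, a list that shares its inducers in part with the members, also set FTV apart. Of 28 measured genes, only BST2 (0.82 ± 0.49), which tethers budding virus, rose over the 4 animals, SAMD9 (-0.62 ± 0.41), an antiviral factor, fell, and 26 did not pass. Their median response was -1.04 in FTV, against 0.02 in FBR, 0.33 in FNV and 0.04 in FKN. FTV had the lowest response in 26 of 28 genes, against 21.9% of all tested probes. Their median unstimulated level was 12.24 in FTV, against 9.99 in FBR, 9.10 in FNV and 10.04 in FKN. FTV had the highest such level in 28 of 28, against 21.7% of all tested probes. All 5 members shared with these genes the high unstimulated level in FTV. With the brightest probes their responses in that animal were above 0, from 0.28 for GBP2 to 2.90 for CXCL9. The GBP2 value lay below the largest self-self reading of 0.58, and BST2 also had a response above 0 in FTV, at 0.10. Without FTV, 6 of the 28 genes rose and 0 fell, and without FNV 1 rose and 5 fell. Without FKN and without FBR 0 rose and 0 fell, so the calls of BST2 and SAMD9 were lost there. Of 12 listed type I and III interferon genes, 5 had a probe, and 0 of these passed the filter on low signal.

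**Figure D3:**
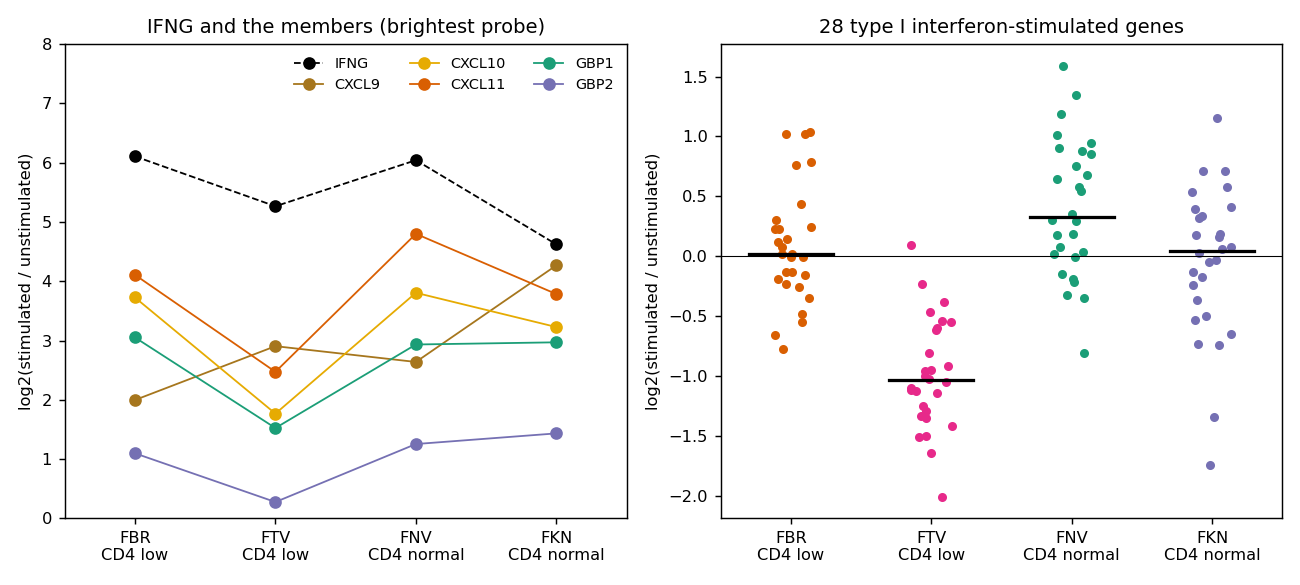
Left, the response (log2 of stimulated over unstimulated) of IFNG and of the brightest probe of each member in each animal, joined by lines only to guide the eye. Right, the responses of 28 type I interferon-stimulated genes, with bars at the medians of 0.02 in FBR, -1.04 in FTV, 0.33 in FNV and 0.04 in FKN.

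IFNGR1, the binding chain, rose by 0.39 ± 0.13 (SD, n = 4; limma adjusted p = 0.00921), and IFNGR2, the signalling chain, fell by 0.64 (adjusted p = 0.00394). Without FKN, 1 of the 2 rises among IFNG and its receptor chains was lost. CXCR3, the receptor of the 3 chemokines, fell by 1.64 on the log2 scale (SD 0.51; adjusted p = 0.00298), with -2.27 in FBR, -1.45 in FTV, -1.06 in FNV and -1.77 in FKN. Its second probe gave -0.79. The cells thus held more RNA of all 3 ligands and less of their receptor after stimulation, in 4 of 4 animals.

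In JAK-STAT signalling and its inhibitors, 8 of 13 measured genes rose, PIAS1, an inhibitor of the pathway, fell (-0.25), and 4 did not pass. CISH and SOCS2, feedback inhibitors of cytokine receptors, rose by 2.68 ± 0.95 and 1.58 ± 0.72. SOCS1 rose by 1.72 ± 0.25 (limma adjusted p = 0.000658) and JAK2 by 1.38 ± 0.37 (adjusted p = 0.00200). The list median was 0.60, against -0.01 over all tested probes, of which 19.9% were called higher and 20.4% lower. The call of PIAS1 was lost without FKN and without FBR.

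The list of interferon regulatory factors had 10 measured genes, with a median of 0.21. Of these 4 rose, IRF3 (-0.17) and IRF9 (-0.34) fell and 4 did not pass, against 19.9% of tested probes called higher and 20.4% lower. Both falls were lost without FKN, without FBR and without FTV, and 1 of them without FNV. IRF8 rose by 2.71 ± 1.00 and IRF4, a factor of T cell activation, by 2.06 ± 0.33. The brighter IRF4 probe is meant here, as the other had -0.15. IRF1, a transcription factor induced by interferon-gamma, rose by 0.90 ± 0.53 (SD, n = 4; limma adjusted p = 0.0207), with 0.94 in FBR, 0.46 in FTV, 1.64 in FNV and 0.58 in FKN. IRF5 rose by 0.38 ± 0.09. Of 12 measured NF-kB subunits, inhibitors and targets, 10 rose and 2 did not pass (median 0.68), led by TNF (2.90 ± 0.23), an inflammatory cytokine, and NFKBIA (1.49 ± 0.15), the inhibitor of NF-kB, with REL (1.25) and TNFAIP3 (1.02) behind them. In the NF-kB list 4 genes rose without FKN and 5 without FBR.

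Other targets of interferon-gamma were mixed. From 30 with a value, 12 rose, VAMP5 (-1.16) and TNFSF13B (-1.46) fell, and 16 did not pass, with a median of 0.45. The largest changes were in the chemokine gene CCL8 (1.87 ± 0.87), APOL6 (1.75 ± 0.61), IL15RA (1.75 ± 0.24), the receptor chain that presents IL-15, and CD274 (1.49 ± 0.43), the ligand PD-L1. Of the 30 genes, 12 rose without FNV, 10 without FKN, 9 without FBR and 16 without FTV. For CCL8 the response was 2.14 in FBR, 0.85 in FTV, 2.92 in FNV and 1.57 in FKN, again lowest in FTV. That held for 16 of the 30 genes of the list, against 21.9% of all tested probes. In antigen processing 4 of 14 genes rose, TAPBP (-0.20), the chaperone tapasin, fell and 9 did not pass (median 0.23). Over all tested probes 19.9% were called higher and 20.4% lower. The immunoproteasome subunits PSMB8 (1.12 ± 0.33) and PSMB9 (0.75 ± 0.27), the peptide transporter TAP1 (1.00 ± 0.39) and the peptidase ERAP1 (0.46 ± 0.16) were the 4. The fall of TAPBP was lost without FKN, without FBR and without FTV.

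**Figure D4:**
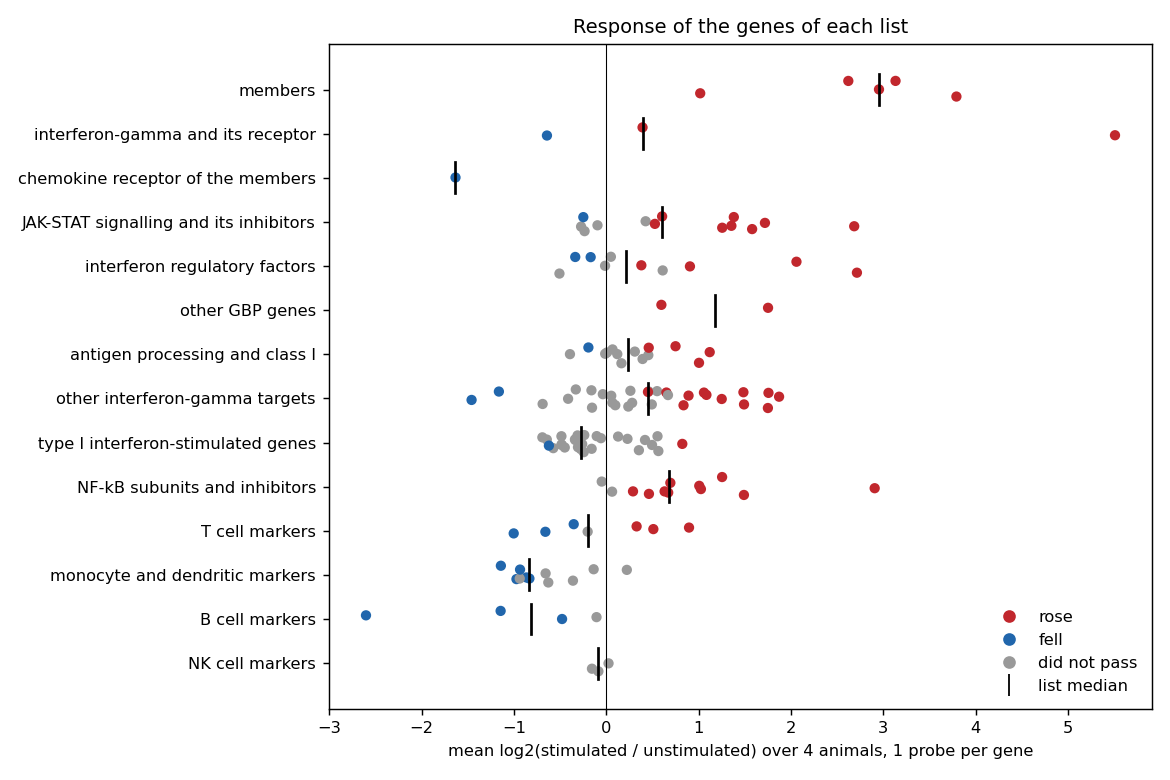
Mean response over 4 animals (x axis, log2 of stimulated over unstimulated) of each measured gene of each list, coloured by whether it rose, fell or did not pass the limma test, with black bars at list medians. The members have a median of 2.95, and the type I interferon-stimulated genes are spread around 0.

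Tested probes beside the chemokines did not share their rise. Within 250 kb of the chemokine probes lay 10 other tested probes, of which 2 rose and 3 fell, with means between -0.91 and 0.84. These were 10 of 18 other probes there, the rest having failed the filter on low signal. Over all tested probes 19.9% were called higher and 20.4% lower. A probe for a ribosomal protein L36-like transcript, 1.83 kb before the CXCL11 probes, had -0.02 (limma adjusted p = 0.820). SDAD1, a gene of ribosome assembly, rose by 0.84 (adjusted p = 0.00211), NUP54, a nucleoporin, by 0.39, while SCARB2, a lysosomal membrane protein, fell by 0.60 and 0.91 with its 2 probes and NAAA, an amidase, by 0.43. None of these 10 came near the 2.95 of CXCL9, the smallest chemokine response. Within 250 kb of the GBP probes lay 23 other probes, of which 17 were tested. Of these 6 rose and 1 fell, the unnamed A_01_P1691761 (-0.53).

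The other GBP genes lay in that second window. GBP3, a further guanylate-binding protein, rose by 1.75 ± 0.61 with A_01_P1766731 (limma adjusted p = 0.00400), at 2.08 in FBR, 0.86 in FTV, 1.85 in FNV and 2.21 in FKN, and by 0.77 with A_01_P009975. The unnamed probe A_01_P1774576, 1.37 kb from the first GBP1 probe, rose by 2.18 ± 0.83 (adjusted p = 0.00513), and the unnamed A_01_P1796461 and A_01_P1785759 rose by 0.85 and 0.46. Both measured other GBP genes, GBP3 and GBP6, rose (median 1.17), and 1 of these 2 calls was lost without FKN or without FBR. GBP7 was not tested, as its brighter probe was well above background in 0 of 16 stimulated and 1 of 16 unstimulated channels. GBP4 and GBP5 had no probe under those names and were not analysed here. Of the probes on the other side of GBP3, those of GTF2B, a general transcription factor, had -0.27 and -0.07 and did not pass.

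**Figure D5:**
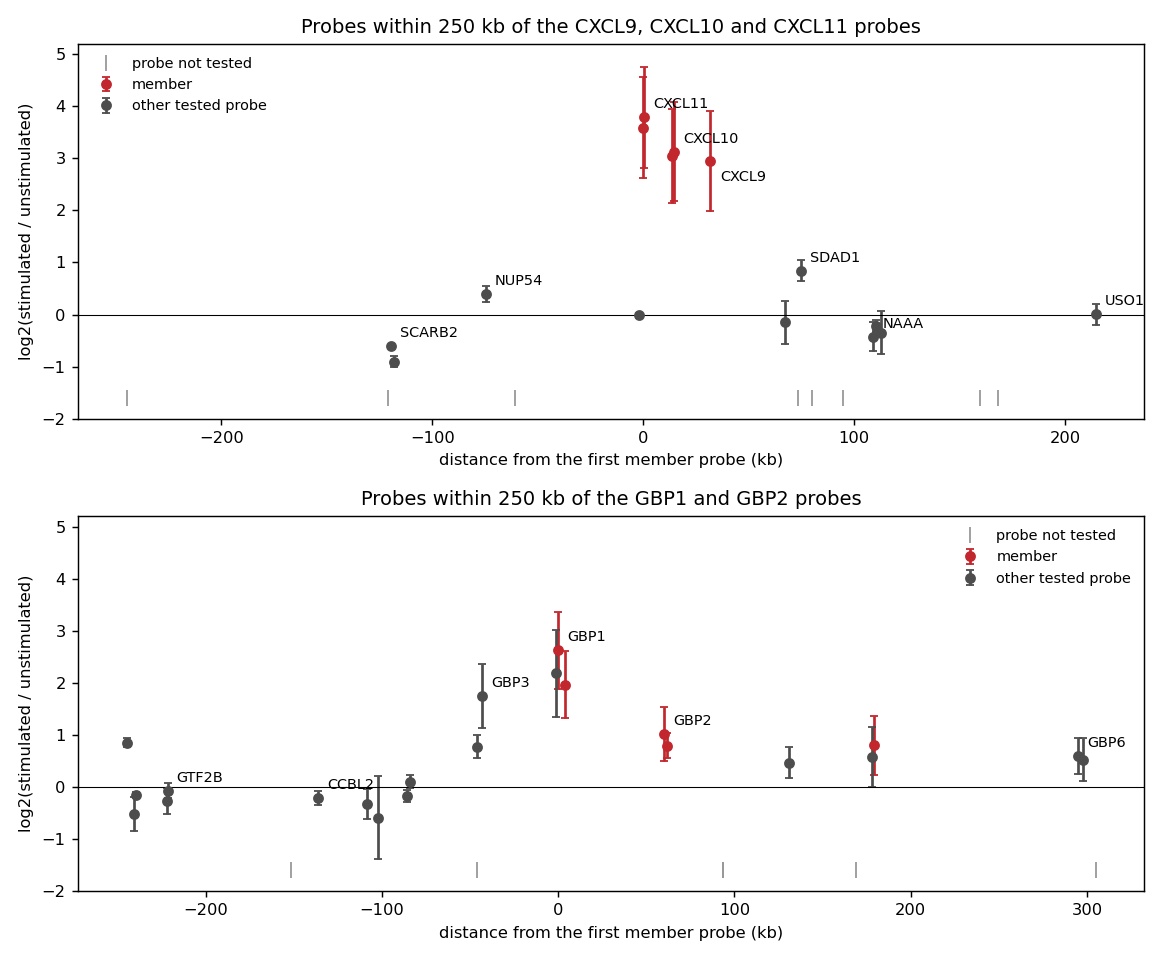
Mean response with SD over 4 animals (y axis) against distance from the first member probe (x axis, kb), for tested probes within 250 kb of the chemokine probes (top) and the GBP probes (bottom). Grey ticks are probes that failed the filter on low signal, and the red member probes stand above their neighbours in the chemokine cluster, while GBP3 (1.75) and 2 unnamed probes (2.18 and 0.85) have values within the range of the members in the GBP cluster.

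Some genes outside the set had levels much like the members' over the 8 combinations of animal and condition. For GBP1 the highest Pearson correlations were with BCL2A1 (0.997), TAP1 (0.985) and CD59 (0.982), and for CXCL11 with the same 3 genes, CD59 by another of its probes (0.984, 0.981 and 0.981). For CXCL10 they were ATF3 (0.989), TBKBP1 (0.976) and TMEM88 (0.976), for CXCL9 BAZ1A (0.971), ZNRF3 (0.970) and E2F6 (0.968), and for GBP2 a transcript named Hs.12082 (0.966), GADD45B (0.959) and PPIF (0.953). Among the members, CXCL11 and GBP1 had 0.979 and CXCL9 and GBP2 0.753. These 8 points share animals and the effect of stimulation, and the correlations describe these samples only. BCL2A1 is a survival protein, CD59 a complement inhibitor and ATF3 a stress-response transcription factor.

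Likeness of the 4 responses alone gave other names. This measure takes in the size of the rise as well as the order of animals. The nearest genes were picked from all tested probes with a symbol outside the members. By root mean square distance on the log2 scale the closest to CXCL10 were IL17A (0.48), TNF (0.91) and CTLA4 (0.91), and to CXCL11 IL10 (0.80), IL17A (0.83) and CCL20 (1.03). In FTV, however, IL17A had 2.54, TNF 2.98 and CTLA4 2.90, against 1.77 for CXCL10. IL17A, TNF and IL10 encode cytokines, CCL20 a chemokine, CTLA4 an inhibitory receptor of T cells and IL2RA a chain of the IL-2 receptor. CXCL9 was closest to RBKS (0.60), CTLA4 (0.66) and IL2RA (0.80), and GBP1 to FRMD4B (0.56), TBKBP1 (0.58) and GADD45B (0.60). GBP2, whose response was the smallest of the members, had the nearest matches, DTX3L (0.13), NBN (0.16) and BST2 (0.21). Of these DTX3L had 1.11 in FBR, 0.39 in FTV, 1.07 in FNV and 1.30 in FKN.

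Set by CD4 status, the members' responses tended in one direction without passing a test. The mean response of the CD4-low animals was below that of the CD4-normal animals for 10 of 10 probes, as for 44.4% of all tested probes. With the brightest probes CXCL9 averaged 2.45 in CD4-low and 3.45 in CD4-normal animals, CXCL10 2.75 in low and 3.52 in normal, and CXCL11 3.29 in low and 4.29 in normal. GBP1 averaged 2.29 in low and 2.95 in normal animals and GBP2 0.69 in low and 1.34 in normal. The groups did not overlap for 2 of the 10 probes, the brightest GBP2 probe and the GBP6-like probe, against 11.6% of tested probes with the low animals below the normal ones. The difference for GBP2 was -0.66 (SE 0.31; limma adjusted p = 1.00), and over all tested probes 0 passed, with 594 at an unadjusted p under 0.05. Without FTV the difference turned positive for CXCL10 (0.21) and GBP1 (0.10), so for these 2 genes its direction rests on that animal. The difference ranged from -1.82 (without FNV) to -0.19 (without FKN) for CXCL9, from -1.82 (without FBR) to -0.18 (without FTV) for CXCL11 and from -1.07 (without FBR) to -0.25 (without FTV) for GBP2.

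Mean unstimulated levels were above those of the CD4-normal animals in the CD4-low animals for 10 of 10 probes, against 45.7% of all tested probes. CXCL9 had 7.23 in FBR and 7.80 in FTV, against 6.66 in FNV and 6.62 in FKN, a difference of 0.88 (SE 0.28; limma adjusted p = 0.822). This probe and the dimmest GBP2 probe were the 2 of 10 whose groups did not overlap, against 15.3% of tested probes with the low animals above. For CXCL11 (0.93) and GBP1 (0.17) the sign turned without FTV, to -0.056 and -0.59, and for GBP1 also without FKN, to -0.51. The differences of CXCL10 (1.68) and GBP2 (0.57) shrank without FTV to 0.16 and 0.047, and that of CXCL9 to 0.59. After stimulation CXCL10 had a difference of 0.85 (SE 0.40; limma unadjusted p = 0.0958, not called after adjustment), with 13.79 in FBR and 14.84 in FTV, against 13.51 in FNV and 13.41 in FKN. The other brightest probes differed after stimulation by -0.19 for CXCL9, -0.03 for CXCL11, -0.43 for GBP1 and -0.07 for GBP2, none of them called. The second GBP1 probe had the opposite sign, 0.95 after stimulation, also not called, and 1.29 without it. After stimulation the low animals lay above the normal ones without overlap for 4 of the 10 probes, against 16.1% of tested probes. These were both of CXCL10, the second of GBP1 and the dimmest of GBP2. By limma 0 probes passed in either level, with 530 (stimulated) and 445 (unstimulated) at an unadjusted p under 0.05, and 2 animals a group limit what could be detected.

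The cells' identity was checked with marker lists. CD3D and CD3G, chains of the T cell receptor complex, had mean levels of 15.49 and 12.02 after stimulation, against 14.64 and 11.54 without it. Of 7 measured T cell markers 3 rose, 3 fell and 1 did not pass, against 19.9% of tested probes called higher and 20.4% lower. CD3D (0.89) and CD3G (0.51) were among those that rose, and CD5 and LCK (-0.66) among those that fell. Without FNV, FBR or FTV 1 rose. CD4, a gene that double-negative cells should lack, had 9.43 after stimulation and 9.36 without it and did not pass (0.05). Markers of monocytes and dendritic cells, which are also known to make these chemokines, were well above background as well: all 11 measured passed the filter, and CD14 did so in 16 of 16 channels of each condition. Their summed linear level was 4799 in FBR, 7564 in FTV, 43038 in FNV and 7490 in FKN after stimulation, against 6233 in FBR, 12415 in FTV, 121676 in FNV and 12191 in FKN without it. FNV thus had far more monocyte signal than the others in both conditions, and 5 of the 11 markers fell (S100A8, S100A9, CD14, VCAN and TYROBP), while 0 rose. Without FNV, 1 of these 11 rose and 5 fell, and without FKN or without FTV 4 fell.

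The summed monocyte signal was lower after stimulation in each of the 4 animals. The median level of its markers was 7.51 in FBR, 8.04 in FTV, 10.07 in FNV and 7.87 in FKN after stimulation, against 7.52 in FBR, 7.91 in FTV, 10.64 in FNV and 8.61 in FKN without it. Without FNV the members' responses were 3.06 for CXCL9, 2.91 for CXCL10, 3.45 for CXCL11, 2.51 for GBP1 and 0.94 for GBP2, and all 5 kept their calls. Which cells made the members' RNA was not tested, and in bulk RNA a change in the number of cells and a change of RNA per cell cannot be told apart. Of 4 measured B cell markers 3 fell, led by CD79B (-2.60), MS4A1 (-1.15) and BLK (-0.48), and their sum was 813 in FBR, 724 in FTV, 2340 in FNV and 927 in FKN after stimulation, against 2437 in FBR, 2017 in FTV, 14251 in FNV and 3450 in FKN without it. Of 3 measured NK cell markers 0 passed. CD8B, of the coreceptors, rose by 0.23 ± 0.11, a call lost without FKN, without FBR and without FTV.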

How the data were processed

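Per the file headers, each array was scanned and quantified with Agilent Feature Extraction 10.7.3.1, and the authors deposited spot and background intensity on a linear scale with flags and a log10 ratio of red over green. A series table that the authors deposited holds log2 ratios of stimulated over unstimulated per animal; its background method and centring are not given in the sources used here. Across probes its columns correlated with the ratios computed here at 0.882 to 0.920, with medians of -0.03 to 0.05. Agilent Feature Extraction and limma stand in the submitters' processing notes.

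From the intensities, ratios were computed with limma 3.58.1 in R 4.3.3 with version 1.17.8 of data.table: normexp background correction with offset 50, loess within arrays, control spots and outlier spots (at most 51 an array) at weight 0 and outliers removed afterwards. Saturation was found in 0 spots, and 0 pairs of channels were identical. Spots of a probe were averaged, the dye-exchanged array was turned, and both were averaged per animal, since they hold the same RNAs. On 1 ratio array of FNV the title and a characteristic disagree on channel 2, and the title was followed. Levels used Aquantile normalisation. A probe was kept if, in 2 or more animals, the scanner software marked one condition as well above background in both dye orientations. Responses were tested against 0 with lmFit and eBayes over all 27495 kept probes, CD4 status as low minus normal, and self-self differences within animals, with an adjusted p under 0.05 as threshold.

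Stimulated and unstimulated samples come from the same animal, so self-self differences were paired by it. The arrays carry 2 editions of the annotation. The newer one, on 12 arrays, was used, and the older names 7 of the 10 member probes alike. Of all distinct probes 18 took a symbol from an alias, and aliases stand for GBP3 and GBP7. For each listed gene the probe of highest mean intensity stands. Named are all members, IFNG, its receptor, CXCR3, IRF1, SOCS1, the other GBP genes, up to 4 called genes of largest change per list and the nearest genes by likeness; SDAD1, NUP54, SCARB2, NAAA, PIAS1, GTF2B, IRF3, IRF9, VAMP5, TNFSF13B, TAPBP, S100A9, CD4, CD8B and the neighbours without a name were chosen after their values were seen. The members and the lists were chosen with earlier results of these data known. Proteins and promoters were not analysed here, and 1 listed pathway gene that the naming rule covers, not a member, is not reported here. Simulated responses of known size served as a check of the fit. Figures were drawn with matplotlib.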

Additional observations from a re-analysis of the deposited data

Results flagged for a closer look

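In each group of 4 animals, Dixon's ratio (the gap of an extreme value over the range) was taken for the response, stimulated level and unstimulated level of the 10 probes, 30 sets in all, and 5 exceeded the 95% critical value. Chance alone passes about 1 in 20 such sets when values are normally distributed. The sets are not independent, as probes of 1 gene repeat each other and responses and levels come from the same RNAs. The count therefore cannot be set against that rate. FTV had the highest unstimulated CXCL10 level with both probes, at 13.17 with A_01_P016296 and 11.06 with A_01_P1672136. It had the lowest GBP1 response with A_01_P009151, at 1.52. FNV had the lowest stimulated level of the second GBP1 probe, at 8.99, and of the GBP6-like probe, at 9.89. Stimulated levels of FNV include its stimulated self-self array, which had the lowest share of spots well above background. No explanation of these values was tested.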

How the results depend on the processing

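The responses of the 10 probes were recomputed under 17 alternatives, and 0 of 165 values changed sign. Some of these alternatives could not change a sign, because they leave the mean response as it was and alter only its test. They were no filter, a filter in all 4 animals, 1 probe per gene symbol, and scan batch as a term. Leaving out 1 animal could not change a sign either, because all 10 probes had responses above 0 in each animal. The same holds for leaving out the FNV array with conflicting labels, as the FNV ratio array that was kept had values above 0. The chemokine probes and the first GBP1 probe kept their calls in every alternative that held them. With the brightest probes the means were 2.51 to 4.60 for CXCL9, 2.91 to 3.59 for CXCL10, 3.45 to 4.23 for CXCL11 and 2.34 to 2.98 for GBP1. With the scanner software's ratios CXCL9 had 4.60, over 1.5 times its 2.95, and the dimmest GBP2 probe 1.38, against 0.79. The GBP6-like probe did not pass with the scanner ratios (0.92), with no filter (0.80), on the self-self arrays (0.65 with the replicate block, and 0.65 with no replicate block), or without FNV (0.61), FKN (0.76) or FBR (0.76); without FTV it passed at 1.06. Leaving out animals in turn gave 0.88 to 1.26 for the brightest GBP2 probe. On self-self arrays with no replicate block the brightest GBP2 probe (0.96), the dimmest (0.74) and the second GBP1 probe (2.00) did not pass. The counts of called probes over the array were 11082, 4851 with median centring, 5796 to 14074 with an animal left out, and, on self-self arrays, 8176 with the replicate block and 2161 without it. Leaving out an animal moved the self-self count between 3857 and 12680. The count by CD4 status was 0, and 5120 in the stimulated level without FKN and 2 in the unstimulated level without FTV; each such fit rests on a single animal in one arm, which is assumed to vary like the other group. In the stimulated level without FKN, the GBP1 difference, low minus normal, was -1.16. FNV is the only CD4-normal animal in that fit. It is also the only animal with the earlier scan date, and its stimulated levels include the dim self-self array. Its monocyte signal was far above that of the others as well. CD4 status therefore cannot be told apart there from scan date, array quality or cell content, and no conclusion on CD4 status is drawn from that fit. Differences by CD4 status turned sign as follows. In the stimulated level, CXCL11, GBP1 and GBP2 had 0.99, 0.30 and 0.30 with scan batch as a term and the same without FNV, CXCL9 had 0.31 without FKN and 0.55 without FBR, and CXCL11 and GBP2 had 0.19 and 0.06 without FBR. In the unstimulated level, GBP1 had -0.51 without FKN and -0.59 without FTV, and CXCL11 -0.056 without FTV. In the response, CXCL10 and GBP1 had 0.21 and 0.10 without FTV; with the sign kept, CXCL9 had -3.21 with the scanner ratios and -1.58 with offset 16, median centring gave -0.26 to -0.82, and CXCL10 and CXCL11 had -0.48 and -0.49 with scan batch as a term. With each animal left out in turn, these differences spanned -1.75 to 0.21 for CXCL10 and -1.43 to 0.10 for GBP1 in the response, -0.93 to 0.55 for CXCL9, -1.05 to 0.99 for CXCL11, -1.16 to 0.30 for GBP1 and -0.45 to 0.30 for GBP2 in the stimulated level, and -0.056 to 1.91 for CXCL11 and -0.59 to 0.93 for GBP1 in the unstimulated level. The causes were not tested. The number of arrays limits the precision, and unstimulated CXCL9 in FNV lies at background.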
